A study of Mus musculus with 8 samples.

Results

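The alpha-arrestin genes Txnip, Arrdc1, Arrdc2, Arrdc3 and Arrdc4 were described in chromatin immunoprecipitation sequencing (ChIP-seq) peak lists from mouse oligodendrocytes, the myelin-forming cells of the brain. These 5 genes, of 21887 protein-coding genes on chromosomes 1 to 19, X and Y, were taken by symbol from RefSeq. A peak was assigned to a gene when its centre lay in the gene span or within 5000 bp of it. The genes were selected on peak heights and ranks in these same lists, so their heights, ranks and counts are a description and carry no test.

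Isolated oligodendrocytes (C57BL6 strain, passage 0) were purified from mouse brain by magnetic beads that bind the lineage antigen O4. Their chromatin was immunoprecipitated with antibodies to Qki-5 and PPARb. Differentiated oligodendrocytes were grown at passage 7 from neural stem cells of an FvB/C57BL6 hybrid strain with IGF-1 and T3. The antibodies used on them recognised Qki-5, PPARb, the HA tag and the repeat domain of RNA polymerase II, here Pol II. All libraries of the differentiated cells came from cells with ectopic PPARb, named HA-PPAR in their titles, so the PPARb antibody there can meet both the cell's own and the introduced protein. Each antibody and each of the 2 inputs had 1 library per cell kind, and the sources used here do not say whether cells or animals were pooled. There is thus no replicate error to judge a difference by. Values in parentheses after a height are 95% exact Poisson bounds, which cover counting error only.

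Qki-5 is a nuclear form of Quaking, an RNA-binding protein, and PPARb is a lipid-sensing nuclear receptor that binds DNA together with RXR. Alpha-arrestins are adaptor proteins, most of which carry short PPxY motifs by which they bring NEDD4-family ubiquitin ligases to membrane proteins. Txnip binds and inhibits thioredoxin, and both Txnip and Arrdc4 restrain glucose uptake. In mammalian cells glucose raises transcription of both genes through MondoA, encoded by Mlxip, and its partner Mlx, which act on carbohydrate response elements in their promoters. Arrdc1 takes part in the budding of vesicles from the plasma membrane, and Arrdc3 in the trafficking of beta-adrenergic receptors.

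The lists held 8375 Qki-5 and 1391 PPARb peaks in isolated cells, and in differentiated cells 30175 peaks of Qki-5, 26404 of PPARb, 30037 of HA and 13267 of Pol II. Depth ranged from 12624236 to 24880851 tags. In isolated cells 0.849% of Qki-5 tags and 0.116% of PPARb tags lay in peaks, against 1.39% to 4.62% of tags in the differentiated-cell libraries. A peak's height is the authors' normalized tag count, in tags per 10000000. As a check of the cell labels, Qki-5 peaks of isolated cells lay within 5000 bp of 7 of 8 oligodendrocyte marker genes. The same list had peaks at 0 of 4 astrocyte, 0 of 4 neuron, 0 of 4 microglia and 4 of 4 endothelial markers. Over all protein-coding genes its share was 35.7%. Pol II peaks of differentiated cells lay at 2 of the 8 oligodendrocyte markers, Mbp and Cnp, and none was called at Mog, Mag, Mobp, Sox10 or Olig2. They lay at 3 of 4 astrocyte, 3 of 4 neuron, 0 of 4 microglia and 1 of 4 endothelial markers, and at 47.5% of all genes. Qki-5 peaks of differentiated cells lay at 2 of 8 oligodendrocyte, 4 of 4 astrocyte and 4 of 4 neuron markers. For microglia and endothelial markers the counts were 0 of 4 and 2 of 4, where 61.2% of all genes had a peak. The part of other cell types in the results below was not tested.

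The promoters of the 4 occupied genes are shown because most of the peaks lay on them. Each is the 250 bases before an annotated start, read 5′ to 3′ along the gene, from RefSeq on GRCm38.p6, the build also called mm10. Capitals mark matches of the motifs searched. The windows are chr3:96557707-96557956 on the plus strand for Txnip, chr7:68749239-68749488 on the minus strand for Arrdc4, chr8:70839721-70839970 on the minus strand for Arrdc2 and chr13:80883134-80883383 on the plus strand for Arrdc3.
Txnip: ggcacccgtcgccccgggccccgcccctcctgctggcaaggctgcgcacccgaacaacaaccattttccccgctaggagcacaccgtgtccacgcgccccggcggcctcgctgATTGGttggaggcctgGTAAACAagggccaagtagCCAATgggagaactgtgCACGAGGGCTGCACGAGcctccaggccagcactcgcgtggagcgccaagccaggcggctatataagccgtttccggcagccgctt
Arrdc4: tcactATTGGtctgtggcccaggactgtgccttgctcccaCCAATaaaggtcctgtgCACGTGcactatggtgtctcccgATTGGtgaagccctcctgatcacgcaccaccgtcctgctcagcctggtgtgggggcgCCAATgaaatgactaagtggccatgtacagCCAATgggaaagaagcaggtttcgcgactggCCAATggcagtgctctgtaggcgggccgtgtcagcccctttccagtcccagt
Arrdc2: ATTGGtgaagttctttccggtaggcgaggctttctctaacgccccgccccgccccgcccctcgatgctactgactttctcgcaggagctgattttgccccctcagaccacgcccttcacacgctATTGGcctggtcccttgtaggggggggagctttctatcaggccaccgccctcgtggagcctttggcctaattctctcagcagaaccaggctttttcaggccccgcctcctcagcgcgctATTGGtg
Arrdc3: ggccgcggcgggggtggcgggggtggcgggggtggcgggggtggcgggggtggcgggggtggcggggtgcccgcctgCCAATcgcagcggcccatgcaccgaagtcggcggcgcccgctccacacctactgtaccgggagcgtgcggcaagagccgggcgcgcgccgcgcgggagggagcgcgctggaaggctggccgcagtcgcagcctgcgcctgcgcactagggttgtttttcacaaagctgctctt

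The Txnip window held 1 match to a loose pattern of the carbohydrate response element, a pair of E-box-like stretches 5 bases apart, at 85 to 69 bases before the start. The matched letters are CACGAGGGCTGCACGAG, and 0.28% of the 32851 promoters in the table held such a match on either strand. The same window held CCAAT once on each strand and the forkhead motif TGTTTAC on the other strand, motifs found in 33.8% and 3.17% of promoters. The Arrdc4 window held the E-box CACGTG, found in 6.02% of promoters, and 6 copies of CCAAT over both strands. Arrdc2 had 3 copies of CCAAT and Arrdc3 had 1, and the window before the Arrdc1 start held none of the motifs. No member window matched the direct repeat bound by PPAR and RXR, present in 0.338% of promoters. None matched ACTAAC, the core of the Quaking RNA motif, present in 5.2%, or the palindrome of the glucocorticoid receptor, present in 0.00913%. These matches describe letters in a window and are not evidence of binding. The members' windows had 58% to 76% G and C, against a median of 52.4% over all promoters.

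In isolated cells 4 of the 5 genes had a Qki-5 peak, as did 35.7% of all protein-coding genes. The PPARb list of isolated cells, which reached 7.57% of all genes, had a peak at Txnip alone among the 5. In differentiated cells the same 4 genes had peaks of Qki-5 (61.2% of all genes), PPARb (57.3%), HA (60.6%) and Pol II (47.5%), and 44.7% of all genes had peaks in all 4 of these lists. Txnip was thus the 1 member with peaks in all 6 lists, as 6.26% of all genes had. Arrdc2, Arrdc3, Arrdc4 and Txnip each had peaks in the 5 lists other than PPARb of isolated cells, as did 29.1% of all genes. Arrdc1 had none in any list, as did 34.3%. Since the peaks themselves assign the genes, nothing is read from these counts. Of the 30 peaks, 23 were centred within 500 bp of an annotated start of their gene and 7 lay elsewhere. The lists held 28.7% to 62.2% of their peaks that close to any annotated start. Those shares cover all peaks of a list, not only peaks within 5000 bp of a gene, so the sets are not alike.

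**Figure D1:**
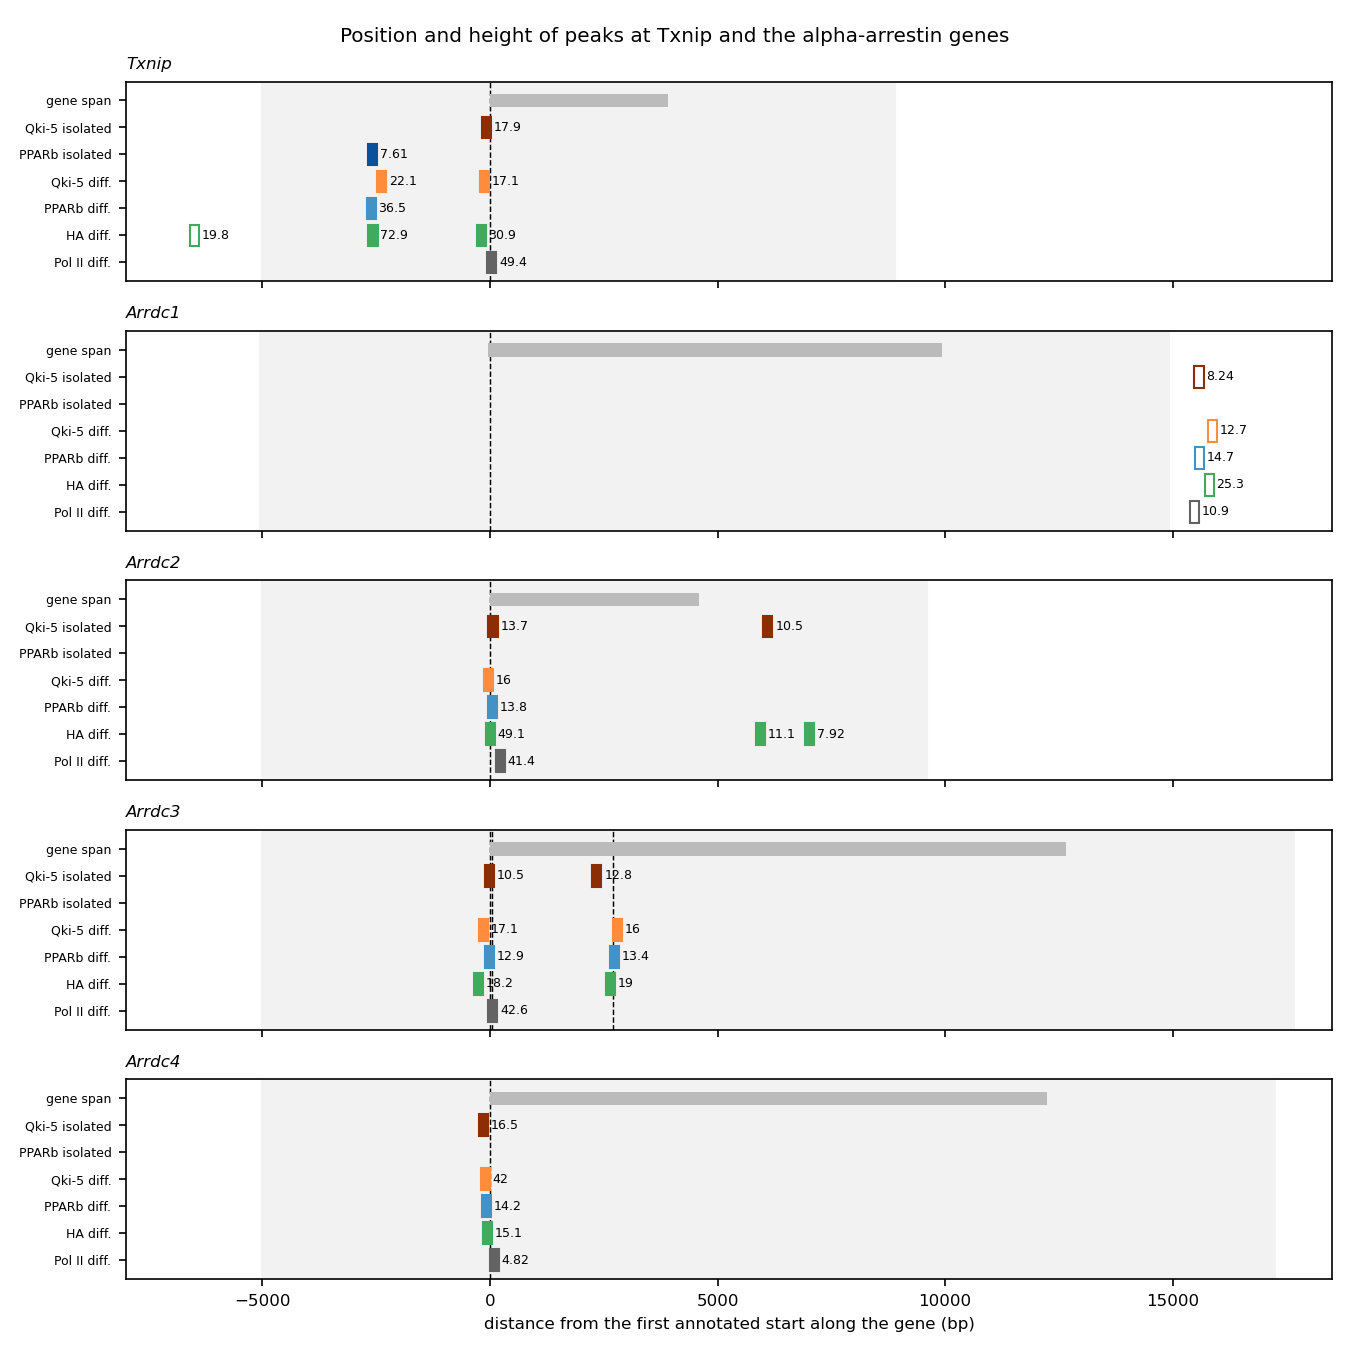
Peaks within 10 kb of each gene span, drawn as bars 200 bp wide by library and placed by distance in bp from the gene's first annotated start, with transcription to the right. Grey bars are gene spans, shading the 5000 bp window, dashed lines annotated starts, filled bars assigned peaks, open bars peaks beyond the window, and each number is the height in tags per 10000000. Txnip has an upstream site with Qki-5, PPARb and HA peaks, Arrdc3 has peaks at 2 clusters of starts, and Arrdc1 has none in its window.

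Txnip (chromosome 3, 96557957 to 96561857, plus strand) was occupied at 2 places, its start and a site 2383 to 2612 bp before the start. The upstream site carried the PPARb peak of rank 5 among the 26404 in differentiated cells, at chr3:96555245-96555445. Its height was 36.5 (29.0 to 45.3) tags per 10000000, 23.1-fold over input. The HA peak there, at chr3:96555286-96555486, had a height of 72.9 (58.8 to 89.4) and rank 21 of 30037. The PPARb and HA centres lay 41 bp apart, and the peaks shared 159 bp.

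The same upstream site was called for PPARb in isolated cells, at chr3:96555272-96555472, with a height of 7.61 (4.16 to 12.8) from 14 tags. That height equals the median of its list, and its fold over input was 6.2. With ties at that height, the peak stood above 34.7% of its list. By fold over input it stood above 51.5%, and by fold over the local background above 7.12%. The isolated-cell PPARb centre lay 27 bp from the differentiated-cell one, with 173 bp shared. The site was therefore found with the receptor's own antibody in cells whose labels name no introduced PPARb.

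Qki-5 also had a peak at the upstream site in differentiated cells, at chr3:96555474-96555674, of height 22.1 (15.8 to 30.1) and rank 1263 of 30175. It stood above 95% of its list by height, 45.5% by fold over input and 21.8% by fold over the local background. Its centre stood 229 bp from the PPARb centre, toward the gene, and the 2 peaks were separated by 29 bp. By the rule of 1 shared bp it met the HA peak, by 12 bp, but not the PPARb peak. No Qki-5 peak of isolated cells and no Pol II peak was called at the upstream site.

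At the Txnip start the lists differed. Qki-5 peaks had heights of 17.9 (12.7 to 24.4) in isolated cells and 17.1 (11.7 to 24.3) in differentiated cells, with centres 78 and 119 bp before the start. The isolated-cell peak had rank 298 of 8375 and the differentiated-cell peak rank 4613 of 30175, in lists of different length. The HA peak at the start had a height of 30.9 (22.0 to 42.2), and Pol II had 49.4 (41.1 to 59.0), rank 77 of 13267, with its centre 36 bp inside the gene. No PPARb peak was called at the start in either cell kind. Of the 250 bases of the Txnip promoter shown, the Qki-5 peak covers 177 in isolated cells and 200 in differentiated cells, HA 156 and Pol II 63. The Qki-5 peak of differentiated cells was 4.78-fold and the HA peak 5.25-fold over the surrounding 10000 bp, where calling required 4-fold. The carbohydrate response element match printed above, at 96557872 to 96557888, lies inside both Qki-5 peaks, and the HA peak ends before it at 96557862.

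The long noncoding RNA gene Gm15441 (chromosome 3, 96555768 to 96566801) spans all of Txnip, and one of its ends lies between the Txnip start and the upstream site. The strand of Gm15441 is not in the tables used here. Peaks at this locus cannot be told apart by which of the 2 genes they belong to.

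Arrdc4 (chromosome 7, 68736994 to 68749238, minus strand) carried the Qki-5 peak of rank 9 in differentiated cells. Its height was 42 (33.1 to 52.6) at chr7:68749236-68749436, centred 98 bp before the start. The Qki-5 peak of isolated cells, centred 148 bp before the start, had a height of 16.5 (11.6 to 22.8) and rank 519 of 8375. These 2 Qki-5 peaks shared 150 bp. The Poisson intervals of the isolated and differentiated Qki-5 heights did not overlap at this gene, whereas those of the tallest peaks did at Txnip, Arrdc2 and Arrdc3. The libraries differ in input, strain and share of tags in peaks, and the difference was not tested.

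PPARb at the Arrdc4 start had a height of 14.2 (9.74 to 20.1), and HA had 15.1 (9.06 to 23.5), ranks 4370 and 12009 in their lists. By height the Pol II peak was among the lowest of its list, at 4.82 (2.49 to 8.43) from 12 tags, rank 13193 of 13267. The order of the libraries at Arrdc4 was thus headed by Qki-5 of differentiated cells, whose interval lay above those of all the other libraries there. Qki-5 of isolated cells, HA and PPARb followed with overlapping intervals, and Pol II lay lowest. The lists differ in antibody, median height and share of tags in peaks. The order therefore does not compare the amounts of each protein bound. The E-box printed above, at 68749426 to 68749431, lies inside both Qki-5 peaks and outside the PPARb, HA and Pol II peaks, which end before it toward the gene. Of the 250 bases shown, the Qki-5 peak covers 200 in isolated cells and 198 in differentiated cells, PPARb 178, HA 155 and Pol II 8. Arrdc4 was the 1 occupied member whose Pol II peak lay below the list's median of 8.84.

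Apart from the Pol II peak, the peaks at this promoter stood lower in their lists by fold over input than by height. The Qki-5 peaks were 5.03-fold over input in isolated cells and 13.3-fold in differentiated cells, and PPARb was 4.5-fold, close to the calling limit of 4-fold. Ranked by fold over input in place of height, the PPARb peak stood above 4.26% of its list in place of 81.3%, and the HA peak above 16.4% in place of 55.8%. The Qki-5 peak of isolated cells stood above 22.4% of its list by fold over input, in place of 92.8% by height. The Qki-5 peak of differentiated cells, rank 9 by height, stood above 58.3% by fold over input. The Pol II peak moved the other way: at 9.15-fold over input it stood above 44.5% of its list, in place of 0.0528% by height. By fold over the local background these peaks kept places close to those by height. The Qki-5 peak then stood above 96.6% of the list in isolated cells and 99.8% in differentiated cells, the PPARb peak above 84.1% and the HA peak above 61.3%. The Pol II peak then stood above 0.754% of its list.

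Arrdc2 (chromosome 8, 70835129 to 70839720, minus strand) had its tallest peaks at the start. The HA peak, with its centre 1 bp from the annotated start, reached 49.1 (37.7 to 63.0), rank 80 of 30037, and Pol II reached 41.4 (33.8 to 50.2), rank 126 of 13267. The PPARb antibody gave 13.8 (9.37 to 19.6) at the same place, rank 4933 of 26404. The HA and PPARb peaks shared 144 bp, so at Arrdc2 the 2 antibodies put 1 site at very different places in their lists, unlike at the Txnip upstream site.

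Qki-5 heights at the Arrdc2 start were 13.7 (9.27 to 19.6) in isolated cells and 16 (10.7 to 23.0) in differentiated cells, with overlapping intervals. Beyond the 3′ end of Arrdc2, 1342 to 2430 bp from it, lay a Qki-5 peak of isolated cells with a height of 10.5 (6.68 to 15.8) and 2 HA peaks of 11.1 (6.06 to 18.6) and 7.92 (3.80 to 14.6). The taller HA peak overlapped the isolated-cell Qki-5 peak, and no Qki-5 or PPARb peak of differentiated cells was called there.

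Arrdc3 (chromosome 13, 80883384 to 80896042, plus strand) has 3 annotated starts, at 80883384, 80883422 and 80886095, and peaks lay at both ends of this stretch. Near the first pair of starts the Qki-5 height was 10.5 (6.68 to 15.8) in isolated cells. In differentiated cells Qki-5 had 17.1 (11.7 to 24.3), PPARb 12.9 (8.64 to 18.5) and HA 18.2 (11.6 to 27.3). At the third start the isolated-cell Qki-5 peak had 12.8 (8.52 to 18.5), and in differentiated cells Qki-5 had 16 (10.7 to 23.0), PPARb 13.4 (9.01 to 19.1) and HA 19 (12.2 to 28.3). Within each library the 2 places did not differ beyond their intervals.

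The Pol II calls differed between them: Pol II had a peak of 42.6 (34.9 to 51.5), rank 113 of 13267, near the first pair of starts, and none was called near the third. Calling also required 4-fold over the surrounding 10000 bp, so a missing call does not show that Pol II was absent at the third start. The isolated-cell Qki-5 peak at the third start was centred 363 bp before it and 448 bp from the differentiated-cell Qki-5 peak, so the 2 shared no base. It was 4.47-fold over input, near the calling limit. All Qki-5, PPARb and HA peaks at Arrdc3 were less than 7-fold over the surrounding 10000 bp.

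Arrdc1 (chromosome 2, 24925352 to 24935335, minus strand) had no peak in its span or window. The nearest peaks lay 5551 to 5952 bp from its span, just past the limit, and were centred 84 to 209 bp from the start of Ehmt1, a histone methyltransferase gene on the same strand. The Qki-5 height was 8.24 in isolated cells. In differentiated cells Qki-5 had a height of 12.7, PPARb 14.7, HA 25.3 and Pol II 10.9. The assigned peaks farthest from a span were the HA and both PPARb peaks of the Txnip upstream site, at 2571, 2585 and 2612 bp. The next peak beyond the limit was an HA peak of height 19.8, 6492 bp before Txnip.

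**Figure D2:**
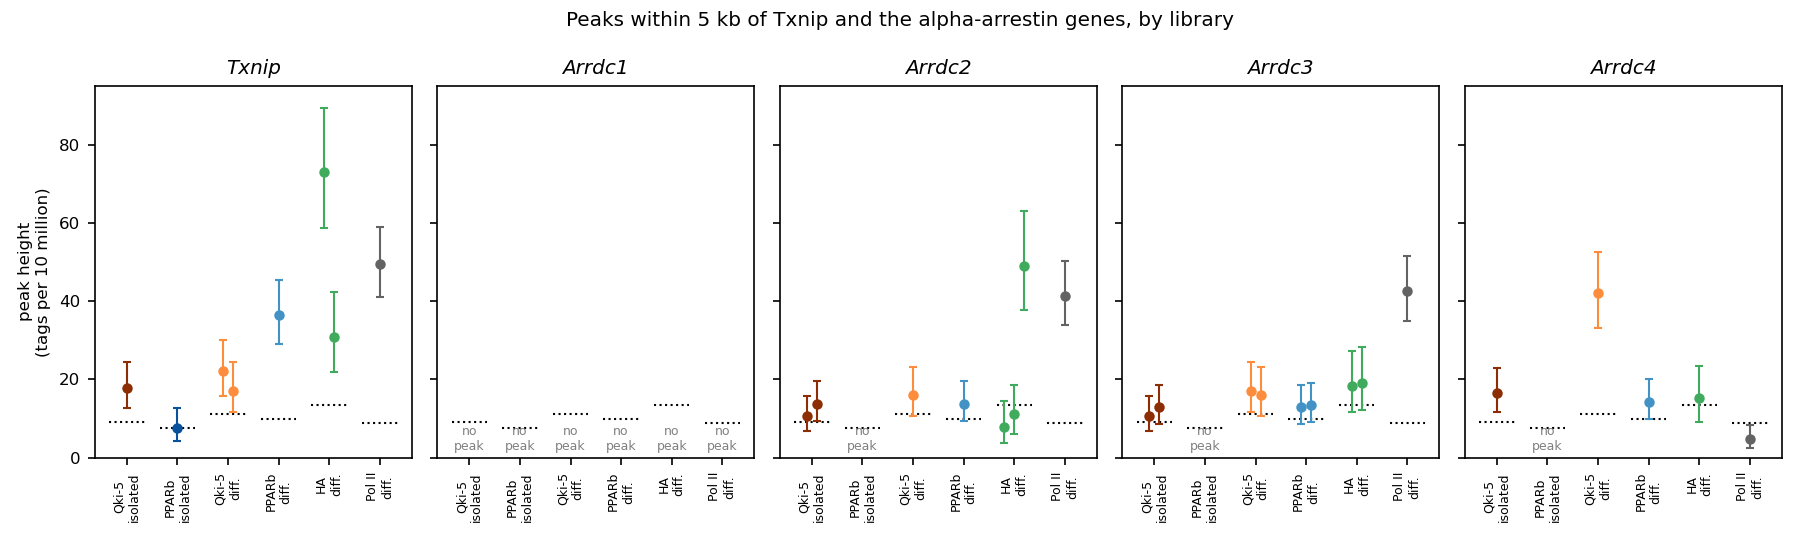
Height of every assigned peak, in tags per 10000000, by gene and library. Points are peaks, bars 95% exact Poisson intervals, dotted lines the median height of each list, and the libraries of isolated cells stand left of those of differentiated cells. PPARb is highest at Txnip (36.5), Qki-5 of differentiated cells at Arrdc4 (42), and Pol II is tall at Txnip, Arrdc2 and Arrdc3 but at 4.82 at Arrdc4.

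The order of the members by height thus differed by antibody. For Qki-5 in isolated cells the tallest peaks ran from Txnip at 17.9 through Arrdc4 at 16.5 and Arrdc2 at 13.7 to Arrdc3 at 12.8, and neighbours in this order did not differ beyond their intervals. For Qki-5 in differentiated cells Arrdc4 at 42 stood above Txnip at 22.1 with no overlap of intervals, while Txnip, Arrdc3 at 17.1 and Arrdc2 at 16 overlapped. For PPARb in differentiated cells Txnip at 36.5 stood apart, and Arrdc4 at 14.2, Arrdc2 at 13.8 and Arrdc3 at 13.4 overlapped. For HA the intervals of Txnip at 72.9 and Arrdc2 at 49.1 overlapped, and Arrdc3 at 19 and Arrdc4 at 15.1 lay below both. For Pol II, Txnip at 49.4, Arrdc3 at 42.6 and Arrdc2 at 41.4 overlapped, and Arrdc4 at 4.82 lay below them. By fold over input the orders in differentiated cells changed, taking each gene's highest fold. No counting bounds were computed for the folds, so these orders are not judged against counting error in the input or the library. PPARb ran from Arrdc3 at 24.5 through Txnip at 23.1 and Arrdc2 at 8.73 to Arrdc4 at 4.5. HA had 34.6 at both Txnip and Arrdc3, 31.1 at Arrdc2 and 7.14 at Arrdc4. Qki-5 ran from Arrdc3 at 65.1 through Arrdc2 at 15.2 and Arrdc4 at 13.3 to Txnip at 10.8. Pol II ran from Arrdc2 at 78.6 through Txnip at 46.9 and Arrdc3 at 26.9 to Arrdc4 at 9.15.

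**Figure D3:**
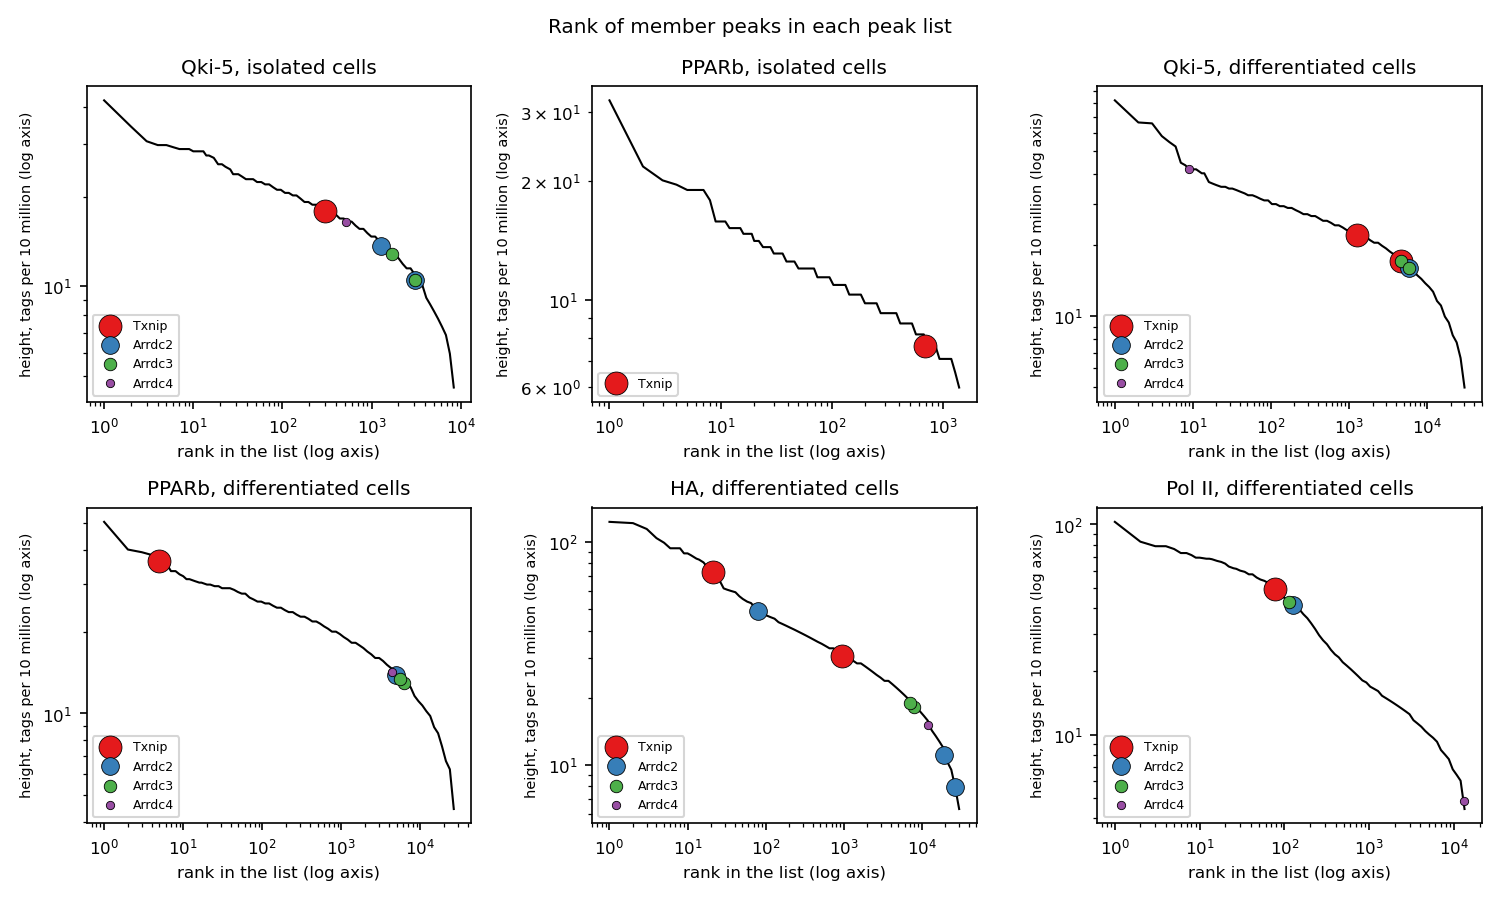
Height against rank for all peaks of each list (black line, both axes logarithmic), with the assigned peaks as points coloured by gene. Point size differs by gene so that tied points, which lie on each other, can be seen. The Txnip peak of rank 5 in the PPARb list and the Arrdc4 peak of rank 9 in the Qki-5 list of differentiated cells lie at the upper end, and the Arrdc4 peak of rank 13193 in the Pol II list at the lower end.

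Of the 30 peaks, 26 were taller than the median of their list. The genes were selected on these same heights, so nothing is read from that count. By fold over input the places changed, as the plot of height against fold over input shows. The PPARb peak at the Txnip upstream site was then above 83.5% of its list and the HA peak above 84.1%, and by fold over the local background above 78.2% and 79.6%. The Qki-5 and HA peaks of differentiated cells at the Txnip start were above 47.5% and 64.4% by fold over input, and above 6.69% and 6.01% by fold over the local background. The Pol II peaks of Txnip, Arrdc2 and Arrdc3 were above 96.8%, 99.4% and 88.2% of the list. The Qki-5 peak of differentiated cells near the first starts of Arrdc3, at 65.1-fold over input, moved the other way, from above 82.8% of the list by height to above 98.7%. By fold over the local background, however, that peak stood above 10.5% of the list.

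**Figure D4:**
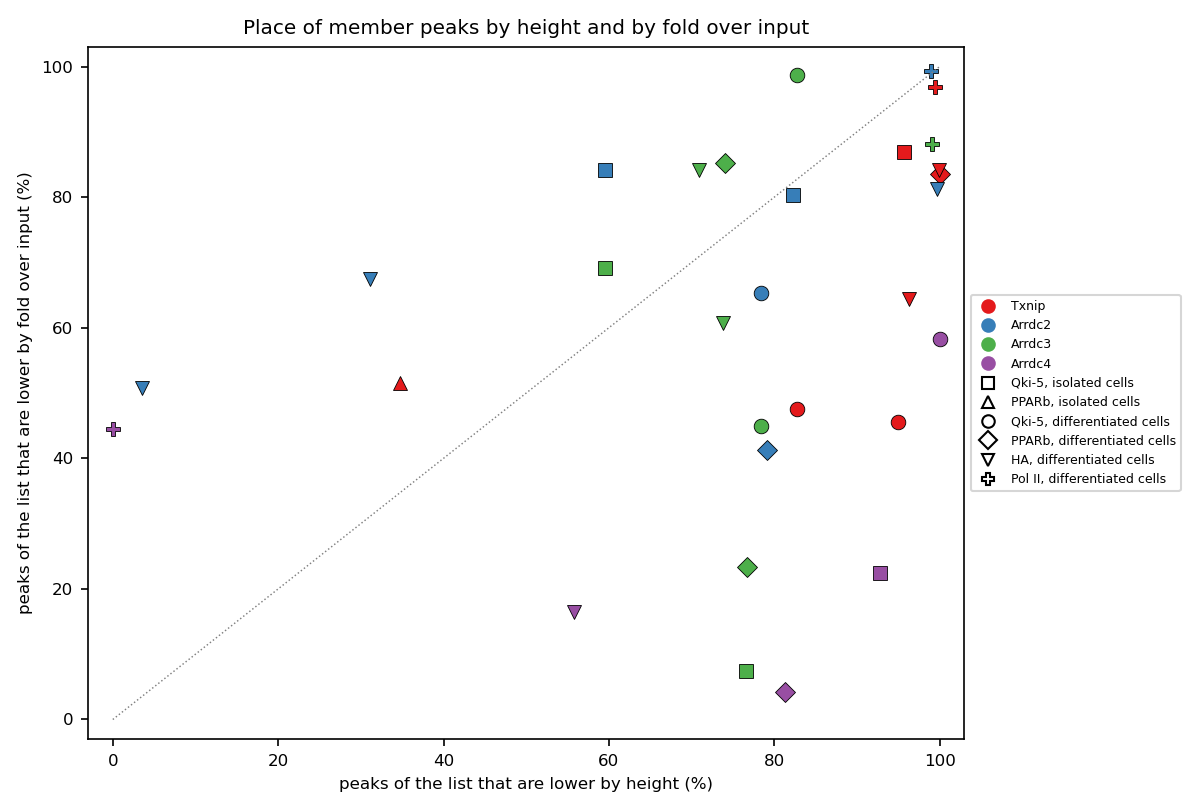
Each assigned peak by the percentage of its list that is lower by height (x axis) and by fold over input (y axis), coloured by gene, with a symbol for each library. On the dotted line both measures give the same place. The PPARb peak at Arrdc4 is above 81.3% of its list by height but above 4.26% by fold over input.

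Overlap of the members' peaks followed the sites above. Of 6 Qki-5 peaks of isolated cells, 4 overlapped a Qki-5 peak of differentiated cells by at least 1 bp, against 69.5% of that list. The exceptions were the peak past the end of Arrdc2 and the one before the third start of Arrdc3. The single isolated-cell PPARb peak overlapped a differentiated-cell PPARb peak, as did 74.3% of its list, but no Qki-5 peak of isolated cells, whereas 76.3% of its list did.

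PPARb peaks met 4 of 6 Qki-5 peaks in differentiated cells, against 65.1% of the Qki-5 list. Conversely, Qki-5 met 4 of 5 PPARb peaks, against 74.4% of the PPARb list. The PPARb exception was the Txnip upstream site. HA overlapped 4 of the 5 PPARb peaks (73.5%), all but the one near the first starts of Arrdc3, and PPARb overlapped 4 of 8 HA peaks (64.6%). Of 4 Pol II peaks, those of Arrdc3 and Arrdc4 overlapped both Qki-5 and PPARb (62.6%). The 4 lists have 1 input as their common control.

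Genes that work with the alpha-arrestins were taken as 6 lists, described by counts of genes with a peak within 5000 bp. Over all protein-coding genes Qki-5 of isolated cells reached 35.7% and PPARb of isolated cells 7.57%. In differentiated cells Qki-5 reached 61.2%, PPARb 57.3%, HA 60.6% and Pol II 47.5% of them. In lists of 3 to 9 genes these shares leave little to read from a count. The glucose-sensing transcription factors had Qki-5 peaks in isolated cells at 2 of 3 genes, and in differentiated cells at 3 of 3 for Qki-5 and 2 of 3 each for PPARb, HA and Pol II. Mlxip had a Qki-5 height of 10.1 in isolated cells. In differentiated cells its Qki-5 height was 18.8, its PPARb height 14.2, its HA height 19 and its Pol II height 18.9. Mlx had a Qki-5 height of 9.16 in isolated cells, and in differentiated cells 19.4 with Qki-5, 11.1 with PPARb, 19.8 with HA and 7.64 with Pol II. Mlxipl, which encodes ChREBP, had 1 peak in all, of Qki-5 in differentiated cells with a height of 7.74.

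The thioredoxin system, which Txnip acts on, had Qki-5 peaks in isolated cells at 2 of 5 genes, near the 35.7% of all genes, and peaks of all 4 antibodies in differentiated cells at 5 of 5, where 44.7% of all genes had them. The mitochondrial thioredoxin gene Txn2 had a Qki-5 height of 15.6 in isolated cells, and in differentiated cells 21 with Qki-5 and 15.6 with PPARb. The cytosolic thioredoxin gene Txn1 had a Qki-5 height of 13.3 in isolated cells, and in differentiated cells 13.8 with Qki-5 and 9.79 with PPARb. The reductase genes Txnrd1 and Txnrd2 had no peak in isolated cells. In differentiated cells Txnrd1 had 13.3 with Qki-5 and 17.8 with PPARb, and Txnrd2 had 11.1 with Qki-5 and 9.35 with PPARb.

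NEDD4-family ligases had Qki-5 peaks in isolated cells at 8 of 9 genes and PPARb peaks at 2 of 9, and in differentiated cells Qki-5, PPARb and HA peaks at 8 of 9 and Pol II at 7 of 9. Several of these genes are long, which gives them more room for a peak. Smurf1 had a Qki-5 height of 6.87 in isolated cells and 24.9 in differentiated cells, and Wwp1 had 10.1 in isolated cells and 21 in differentiated cells. Nedd4 had a Qki-5 height of 8.24 in isolated cells and 19.9 in differentiated cells, and Nedd4l had 6.87 in isolated cells and 16.6 in differentiated cells. The glucose transporter genes had Qki-5 peaks in isolated cells at 1 of 3 and in differentiated cells at 3 of 3. Slc2a1, the widely expressed transporter whose surface level Txnip lowers, had a Qki-5 height of 5.95 in isolated cells, and in differentiated cells 13.8 with Qki-5, 11.6 with PPARb and 26.1 with HA. Slc2a3 had no peak in isolated cells, and in differentiated cells 17.1 with Qki-5, 11.6 with PPARb and 14.3 with HA.

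Among other arrestins Qki-5 peaks lay at 2 of 5 genes in isolated cells and 4 of 5 in differentiated cells. The beta-arrestin gene Arrb2 had heights of 8.7 with Qki-5 and 7.61 with PPARb in isolated cells, and of 17.1 with Qki-5 and 13.8 with PPARb in differentiated cells. Arrb1 had no peak in isolated cells, and in differentiated cells 13.8 with Qki-5 and 13.4 with PPARb. The remaining alpha-arrestin gene, Arrdc5, had 8.7 with Qki-5 and 8.16 with PPARb in isolated cells, and 12.7 with Qki-5 and 5.79 with PPARb in differentiated cells. In the last list, Qki-5 peaks lay at 2 of 3 genes in both cell kinds, Ddit4 and G6pc3, and none lay at Nlrp3, which encodes an inflammasome protein that Txnip can bind. Ddit4, a stress-induced inhibitor of mTORC1 signalling, had a Pol II height of 69.5, above that of Txnip.

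Over the 6 libraries, the genes whose tallest peaks held the places most like those of Txnip were Kctd20, Zmiz1, Tor1aip1, Tor1aip2 and Anapc15. Likeness was the Euclidean distance between percentiles in the 6 lists, and was 6.62 points for Kctd20 and 9.55 for Zmiz1. Tor1aip1 and Tor1aip2 overlap on chromosome 1 and have the same tallest peaks. All 5 shared with Txnip an isolated-cell PPARb height of 7.61, the median of that list. This follows in part from the choice, since likeness in that list was used to pick them. The PPARb height in differentiated cells was 24 at Kctd20 and 20 at Zmiz1, below the 36.5 at Txnip, which percentiles compress at the top of a list.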

How the data were processed

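The submitters' processing notes name HOMER 4.10.1, SAMtools 1.8, Bowtie 1.2.2, Trim Galore 0.4.4, bcl2fastq 2.19.1.403 and build mm10. Per the file headers, the authors' findPeaks run (factor style) applied a 0.001 false discovery rate, a minimum of 4-fold against input at Poisson p 0.0001, and a minimum of 4-fold against the local 10000 bp. The tag directories' names mark duplicates as removed, and 2 of them (differentiated-cell Qki-5 and isolated-cell input) as merged. Very broad signal can fail the local filter.

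The deposited normalized tag count is a signal scaled to 10000000 tags per library. Deposited total tags are raw counts in 4 lists. For PPARb and Pol II of differentiated cells, where the authors scaled them to the input as a signal, tag numbers were taken from height and library total. Deposited folds over input and local background are ratios from the caller.

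Peaks 200 bp wide on chromosomes 1 to 19, X and Y were assigned to RefSeq genes and compared by at least 1 shared bp, with Python 3.11.15, pandas 2.3.3 and scipy 1.17.1; both steps were tested on simulated data. Starts and strands came from the promoter table. No test was run, since each group had 1 library. Alternatives were windows of 1000 and 10000 bp, 8-fold over input, the 5000 tallest peaks, 100 shared bp, centres within 500 bp, and ranking by either fold. The members and lists were chosen with earlier results of these data known. All 5 members are named, with up to 4 genes per pathway list that had Qki-5, PPARb and HA peaks in differentiated cells, by the smaller of the Qki-5 and PPARb percentiles; Mlxipl and Nlrp3 were added after their values were seen. The sequence of the Txnip upstream site was not analysed here. The values of 1 marker gene are not reported here.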

Additional observations from a re-analysis of the deposited data

How the results depend on the processing

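No paired analysis was possible because each group had 1 library, and for the same reason no replicate could be left out. Of 78 recomputed counts, 62 stayed within 1.5 times the reported one, among them all 18 with the 10000 bp window and all 6 with centres within 500 bp. PPARb of isolated cells had 0 members and 0 peaks in place of 1 with the 1000 bp window and with 8-fold over input, and its 1 overlap with differentiated-cell PPARb was also 0 under both. At 8-fold over input, PPARb of differentiated cells kept 3 of 5 peaks. The peaks shared between Qki-5 and PPARb numbered 2 in place of 4 counted from either list, those of PPARb shared with HA 2 in place of 4, and Pol II peaks with both factors 1 in place of 2. Among the 5000 tallest peaks, PPARb of differentiated cells had 3 peaks, and HA had 3 in place of 8 at 2 genes in place of 4. The 1000 bp window leaves out the Txnip upstream site: the tallest HA peak of Txnip was then 30.9 in place of 72.9, PPARb of differentiated cells had 3 members in place of 4, and HA had 5 peaks in place of 8. With 100 shared bp, Pol II peaks with both factors numbered 0. Of 82 recomputed percentiles of tallest peaks, 29 moved past their counting interval, 15 of 21 by fold over input and 13 of 21 by fold over local background. A missing peak means that none was called: the lowest heights in the lists ran from 4.42 to 6.34.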
